A study of Homo sapiens with 16 samples.

Results

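The effect of the blank pepsin-trypsin mixture PT on gene expression in Caco-2 cells was taken from 8 arrays, 4 of PT cells and 4 of medium control (MED-CTL) cells, out of the 16 arrays of the series. Caco-2 is a line of human colon carcinoma cells used as a model of the intestinal epithelium. PT was a digest made without any substrate, so that it held the enzymes and no gliadin. Per the study's methods the enzymes had been inactivated by heating, which an assay with a trypsin substrate verified (data not shown). For the PT arrays, undifferentiated cells were given PT for 6 h in medium with serum, and MED-CTL cells were kept for 6 h in the same medium without a stimulant. The other 8 arrays, 4 each, came from cells given the pepsin- and trypsin-digested gliadin PT-G or 150 µg/ml of the synthetic gliadin peptide p31-43, and they entered the fit so that the 4 conditions shared 1 estimate of the spread. All 4 conditions were seeded alike, were lifted from the flasks with active trypsin before RNA extraction, and came from 4 independent experiments with the same cell line a few passages apart, so the replicates are repeats within 1 line. The dose of PT is not given in the sources used here. The methods state an endotoxin test for PT-G, which found none, but not for PT. The paper holds PT unlikely to contain endotoxin, since it had no substrate and was made together with PT-G.

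Trypsin-like proteases can signal to cells by cutting protease-activated receptors, which are G protein-coupled receptors, and growth factors signal through receptor tyrosine kinases. Both routes lead to the MAP kinase cascade, and through it to early response genes, whose transcription starts within minutes of a stimulus without new protein synthesis. Many of these genes encode transcription factors, and a later set encodes phosphatases and adaptors that switch the cascade off again.

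Median raw intensities ranged from 202 to 410 on the PT arrays and from 153 to 278 on the MED-CTL arrays, and between 27660 and 33947 spots per array were well above background. PT replicate 3 was the brightest array and lay on a slide without a MED-CTL array. The arrays belonged to 4 runs, groups of arrays whose file names share a date, with 1 array of each condition per run, and to 5 slides. All 10 epithelial and intestinal markers, among them EPCAM, VIL1 and KRT20, were well above background on all 16 arrays. Their summed intensity lay between 886000 and 953000 on the PT arrays and between 914000 and 1070000 on the MED-CTL arrays. Of 13 markers of immune, fibroblast and endothelial cells, 7 were well above background on all 16 arrays, namely VWF, CD14, PDGFRA, PECAM1, CD3E, CD68 and THY1. Another 4, among them the leukocyte marker PTPRC, the endothelial marker CDH5 and the collagen gene COL1A2, were so on no array. None of the 13 passed the nominal threshold between PT and MED-CTL, with differences from −0.23 to 0.16. The summed intensity of the 13 lay between 5540 and 11200 under PT and between 6200 and 11000 in medium.

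Of 17227 genes tested, 427 (2.48%) rose and 460 (2.67%) fell under PT at the study's nominal p under 0.01, the threshold meant wherever a gene is said to rise or fall. With Benjamini-Hochberg adjustment, 112 genes (0.65%) passed an adjusted p under 0.05 as higher and 108 (0.627%) as lower. The rises were the larger changes. Among the genes called, 47 rose and 20 fell by more than 1 on the log2 scale, that is by more than 2-fold. With the slide entered as a block in the model, 1126 genes (6.54%) rose and 1205 (6.99%) fell at the nominal threshold, and 789 (4.58%) and 799 (4.64%) passed the adjustment. All 112 genes higher after adjustment were higher, and all 108 lower genes lower, in each of the 4 runs. The genes were called on these same arrays, so this agreement follows in large part from the choice. Leaving out MED-CTL replicate 2 left 59 and 37 genes after adjustment, and a fit of PT and MED-CTL arrays alone left 7 and 2. Median scaling of the arrays gave 369 higher and 271 lower genes at the nominal threshold, and 71 and 29 after adjustment.

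**Figure D1:**
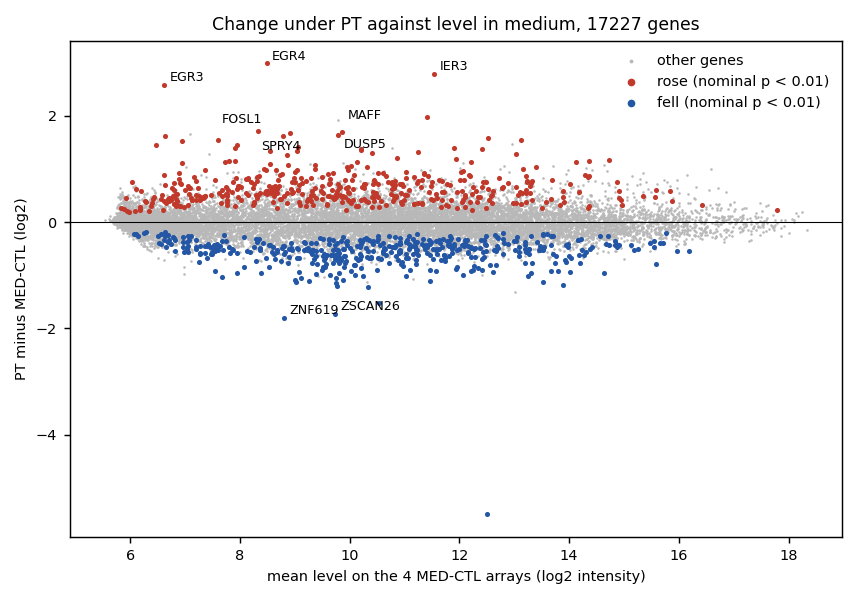
Difference between PT and MED-CTL (log2, mean of 4 arrays each) of 17227 genes against their mean level on the MED-CTL arrays (log2 intensity); red points rose, blue points fell, grey points did not pass the nominal p under 0.01. EGR4, IER3 and EGR3 stand above all other raised genes, and ZNF619 and ZSCAN26 are labelled among the lowered ones. The blue point near -5.5 is PRDM10-DT, whose MED-CTL arrays disagreed among themselves.

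The list of early response transcription factors also holds the early response genes IER2, IER3 and IER5. Of its 34 genes measured, 16 (47.1%) rose and none fell, against 2.48% and 2.67% of all genes. Of the 16, 13 passed the adjustment. The median of the list was 0.76 on the log2 scale, against −0.01 over all genes. The slide block gave 27 of 34 risen, against 6.54% of all genes in that fit, and a median of 0.86. By run the median was 1.09, 0.54, 0.71 and 0.84 in runs 1 to 4.

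EGR4, an early growth response transcription factor, had log2 intensities of 11.62, 11.95, 10.80 and 11.54 on PT arrays 1 to 4 and of 9.99, 7.83, 8.50 and 7.61 on MED-CTL arrays 1 to 4. The groups did not overlap, which the choice of the 12 largest rises required and which held for 1136 of all genes (6.59%). The MED-CTL arrays of EGR4 spread widely (SD 1.08, n = 4). The difference was 2.99 (SE 0.55, limma, adjusted p = 0.021). Its relative EGR3 read 8.92, 9.13, 9.03 and 9.78 under PT and 7.21, 6.09, 6.95 and 6.24 in medium, where 3 of the 4 arrays were well above background. The rise of EGR3 was 2.59 (SE 0.34, limma, adjusted p = 0.00337).

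IER3, an early response gene that acts in cell survival, read 14.24, 14.17, 14.34 and 14.62 under PT and 11.93, 11.25, 11.10 and 11.90 in medium. Every PT array was thus more than 2 log2 units above every MED-CTL array. The difference of 2.80 had an SE of 0.24 (limma, adjusted p = 8.8e-05). The AP-1 subunits FOSL1 and JUNB rose by 1.73 (SE 0.35) and 1.54 (SE 0.27), and the small MAF factor MAFF rose by 1.70 (SE 0.37). The nuclear orphan receptors NR4A3 and NR4A1 rose by 1.44 (SE 0.19) and 1.28 (SE 0.18), although a dimmer NR4A3 probe changed by −0.07. The Krüppel-like factor KLF6 rose by 1.16 (SE 0.21), the stress-induced factor ATF3 by 0.87 (SE 0.14), and BHLHE40, a repressor that also belongs to the circadian clock, by 1.46 (SE 0.13).

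The classical members of the list did not pass the threshold. EGR1 was 0.41 higher under PT (SE 0.54), FOS 0.67 higher (SE 0.44) and JUN 1.01 higher (SE 0.49). The spread of EGR1 between MED-CTL arrays was large (SD 1.12, n = 4), as was that of FOS (SD 0.98, n = 4) and JUN (SD 1.13, n = 4). MYC was 0.70 higher (SE 0.27) and SRF, whose protein drives many early response genes, differed by −0.01 (SE 0.18).

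Inhibitors that end MAP kinase and growth factor signalling rose alongside. Of 23 measured, 16 (69.6%) rose and none fell, 12 of them past the adjustment, where 2.48% of all genes rose. The median was 0.87 (0.82 with a slide block, and between 0.54 and 1.01 in the 4 runs). DUSP5, a nuclear phosphatase of ERK, read 11.69, 11.41, 11.29 and 11.36 under PT and 10.30, 9.54, 9.76 and 9.57 in medium. Its rise was 1.64 (SE 0.18, limma, adjusted p = 0.000719). SPRY4, a Sprouty protein that blocks receptor signalling to RAS, read 10.80, 10.55, 10.62 and 10.40 against 9.44, 8.93, 8.50 and 8.80, and rose by 1.67 (SE 0.19). The cytoplasmic ERK phosphatase DUSP6 rose by 1.38 (SE 0.24), the EGF receptor inhibitor ERRFI1 by 1.00 (SE 0.13), the pseudokinase TRIB1 by 1.13 (SE 0.13) and the small GTPase GEM by 1.33 (SE 0.18). The other Sprouty genes SPRY2 and SPRY1 rose by 0.87 (SE 0.16) and 0.83 (SE 0.16), and NAB2, which represses EGR proteins, by 0.94 (SE 0.20). DUSP7 (0.04, SE 0.29) and DUSP16 (−0.01, SE 0.20) were among the 7 that did not pass.

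**Figure D2:**
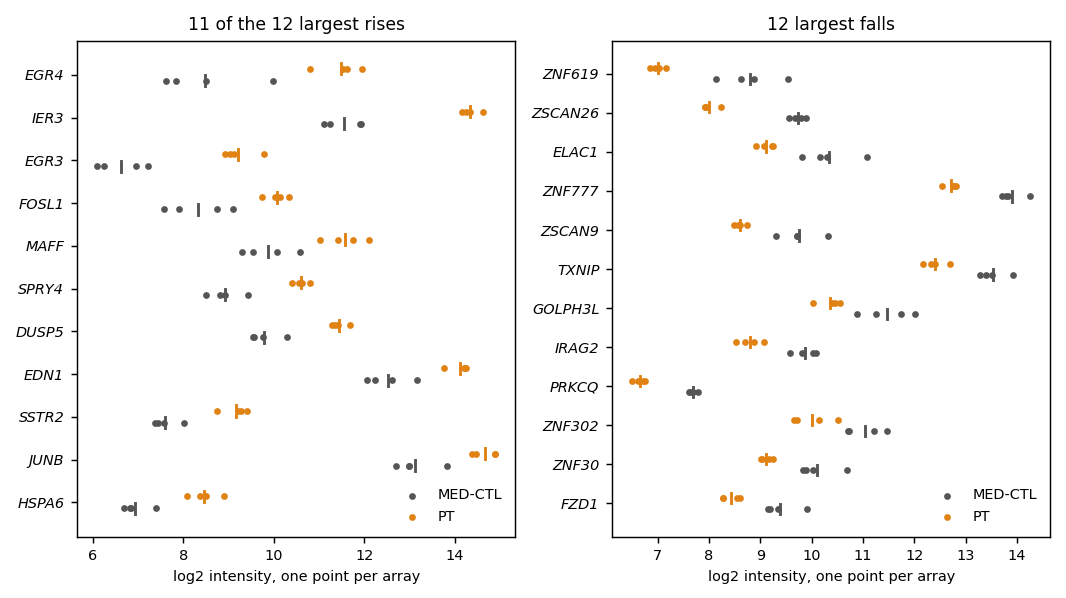
Log2 intensity on each of the 4 PT (orange) and 4 MED-CTL (grey) arrays for 11 of the 12 largest rises and the 12 largest falls with an adjusted p under 0.05; points are arrays and bars the group means. By the rule of choice the groups do not overlap in any of the 23 genes drawn, and the MED-CTL arrays of EGR4 spread from 7.61 to 9.99.

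The other genes among the 12 largest rises came from several functions. EDN1, the precursor of the vasoconstrictor endothelin-1, read 14.20, 14.24, 13.77 and 14.23 under PT and 13.17, 12.23, 12.07 and 12.61 in medium, a rise of 1.59 (SE 0.26). SSTR2, a somatostatin receptor, rose by 1.56 (SE 0.19). HSPA6, a strictly inducible HSP70, read 8.90, 8.51, 8.09 and 8.37 under PT and 6.85, 7.40, 6.69 and 6.82 in medium. Its rise of 1.53 (SE 0.21, limma, adjusted p = 0.00402) stood apart in its list, as 3 of 23 heat shock genes rose and the list's median was 0.11. HSPA2 and DNAJB1 were the others, at 0.72 and 0.66, where 2.48% of all genes rose. With a slide block, the 12 largest rises lay between 1.48 and 3.18, all with an adjusted p under 0.05.

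Promoter sequences are shown for 4 raised genes picked because they carry a known response element within 250 bases before the start. MAFF is on the early response list, and the other genes shown are on neither that list nor the feedback list. The bases come from RefSeq (GRCh38.p14), 250 bases up to the transcription start, 5′ to 3′ on the gene's strand, with the element in capitals. MAFF and ZNF143 hold the cAMP response element TGACGTCA, the chemokine gene CXCL8 holds the AP-1 site TGANTCA, and HSPA6 holds a heat shock element, here in its reverse orientation (inverted repeats of GAA with NN between them).
MAFF (chr22:38201744-38201993, plus strand): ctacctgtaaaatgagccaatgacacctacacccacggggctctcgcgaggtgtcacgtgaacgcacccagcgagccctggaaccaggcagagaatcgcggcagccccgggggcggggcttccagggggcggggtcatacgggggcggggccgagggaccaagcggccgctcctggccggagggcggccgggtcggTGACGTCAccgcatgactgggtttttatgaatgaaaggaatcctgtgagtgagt
ZNF143 (chr11:9460762-9461011, plus strand): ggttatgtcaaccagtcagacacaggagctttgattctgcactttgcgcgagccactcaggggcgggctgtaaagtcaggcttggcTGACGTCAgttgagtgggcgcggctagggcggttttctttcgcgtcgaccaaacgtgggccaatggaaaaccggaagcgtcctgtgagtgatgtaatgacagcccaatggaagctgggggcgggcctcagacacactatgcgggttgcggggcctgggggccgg
CXCL8 (chr4:73740319-73740568, plus strand): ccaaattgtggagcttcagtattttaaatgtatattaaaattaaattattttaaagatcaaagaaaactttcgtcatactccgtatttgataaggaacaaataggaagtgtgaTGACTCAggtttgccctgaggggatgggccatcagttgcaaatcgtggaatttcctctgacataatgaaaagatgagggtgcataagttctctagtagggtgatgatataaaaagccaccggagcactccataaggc
HSPA6 (chr1:161524290-161524539, plus strand): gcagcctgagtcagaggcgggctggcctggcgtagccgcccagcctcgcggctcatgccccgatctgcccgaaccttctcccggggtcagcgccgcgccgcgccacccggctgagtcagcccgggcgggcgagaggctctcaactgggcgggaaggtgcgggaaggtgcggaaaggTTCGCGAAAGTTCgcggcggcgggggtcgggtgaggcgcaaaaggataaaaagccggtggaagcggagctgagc
The elements in capitals begin 54, 164, 137 and 74 bases before the start in these windows. The HSPA6 window also matches the AP-1 site, which is left in small letters there. Both strands were searched, and every window of this length in the table was counted. The cAMP response element was found in 1.65% of all 35116 promoter windows, the AP-1 site in 6.57% and the heat shock element in 0.441%. A promoter was given for 340 of the 427 raised genes, for 372 of the 460 lowered genes and for 13439 of all genes tested, some with several windows. By gene, 17 raised genes (5.0%) held the cAMP response element, against 8 lowered genes and 2.97% of all genes. For the AP-1 site the shares were 6.18% of raised genes, 4.3% of lowered genes and 6.99% of all genes. The serum response element named CArG box was in 5 raised genes, 8 lowered genes and 1.7% of all genes. For the heat shock element the shares were 0.588% of raised genes and 0.513% of all genes, and no lowered gene held it. A promoter was given for 23 of the 32 raised genes of the early response and feedback lists. The cAMP response element was in 3 of these 23 (DUSP1, DUSP8 and MAFF). The AP-1 site, the CArG box and the heat shock element were in none of them. These matches are letters in a window and were not tested.

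Regulators of mRNA decay and of G protein signalling held single strong rises. ZFP36, which destabilises cytokine mRNAs, rose by 1.39 (SE 0.24), and BTG2, a cofactor of deadenylation, by 0.93 (SE 0.14), in a list of 9 genes of which 3 rose. RGS16 and RGS2, which shorten signalling by G proteins, rose by 1.36 (SE 0.22) and 1.14 (SE 0.29). They were the 2 of 14 RGS genes that rose, and the median of that list was 0.10. Among all genes 2.48% rose.

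Among 10 ligands and receptors of the EGF family, HBEGF and AREG, both shed growth factors, rose, against 2.48% of all genes. HBEGF read 10.37, 10.27, 10.45 and 10.38 under PT and 9.72, 9.10, 9.17 and 9.46 in medium, a rise of 1.01 (SE 0.13, limma, adjusted p = 0.00221). AREG rose by 0.58 (SE 0.17, adjusted p = 0.174). None of the receptors EGFR (−0.24), ERBB2 (−0.67) and ERBB3 (−0.16) passed the threshold. Of 13 protease-activated receptors, serine proteases, trypsin inhibitors and related genes, 3 rose and none passed the adjustment, with a median of 0.31. In the 4 runs that median was 0.30, 0.13, 0.73 and −0.01. When slide was a block 4 rose, against 6.54% of all genes in that fit. PRSS22, F2R and PROCR, the endothelial protein C receptor, then passed the adjustment (limma, adjusted p = 0.00267, 0.0104 and 0.0498). The thrombin receptor F2R read 8.30, 8.24, 8.67 and 8.34 under PT and 7.69, 7.44, 7.94 and 8.09 in medium, a rise of 0.60 (SE 0.16, limma, adjusted p = 0.141). F2RL1, the receptor that trypsin cuts, was 0.53 higher (SE 0.31, limma, adjusted p = 0.702) with overlapping groups. The serine protease PRSS22 rose by 0.87 (SE 0.19, limma, adjusted p = 0.0515).

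Inflammatory genes rose in part. Of 27 chemokines and cytokines, 6 (22.2%) rose and none fell, 2 past the adjustment, against 2.48% and 2.67% of all genes. The median of the list was 0.04 and many members were not well above background. CCL20, which attracts dendritic cells and lymphocytes to mucosa, read 8.44, 8.96, 8.89 and 9.14 under PT and 8.06, 7.39, 7.54 and 7.88 in medium, a rise of 1.14 (SE 0.22, limma, adjusted p = 0.0283). CXCL8, the neutrophil attractant interleukin-8, read 7.19, 6.49, 6.76 and 6.72 under PT. It was well above background on all 4 PT arrays and on no MED-CTL array, so that its level in medium was not resolved. The measured means of 6.79 and 6.03 differed 1.69-fold (log2 0.76, SE 0.13, limma, adjusted p = 0.0173). CXCL1, another neutrophil attractant, rose by 1.41 (SE 0.45, adjusted p = 0.245), LIF by 1.04 and IL11 by 0.87. IL6 passed the nominal threshold at 0.23 but was well above background on only 2 PT arrays and 1 MED-CTL array. IL15 (−0.14, SE 0.14) did not pass.

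Of 24 subunits, inhibitors and targets of NF-kB, 5 (20.8%) rose and 2 (8.33%) fell, against 2.48% and 2.67% of all genes. Of these, 3 and none passed the adjustment, and the median was 0.29. ICAM1, an adhesion molecule for leukocytes, read 11.95, 12.01, 12.03 and 11.86 under PT and 11.29, 11.29, 11.17 and 11.14 in medium, a rise of 0.74 (SE 0.09, limma, adjusted p = 0.0019). The kinase MAP3K8, which activates ERK, rose by 0.94 (SE 0.13) and BCL3, an atypical IkB protein, by 0.55 (SE 0.10). NFKBIA (0.08, SE 0.24) and TNFAIP3 (0.34, SE 0.17), the feedback inhibitors of NF-kB, did not pass. The kinase IKBKB and the deubiquitinase CYLD fell by 0.60 and 0.56.

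Genes that slow the cell cycle or act in survival changed in both directions. CDKN1A, the CDK inhibitor p21, read 10.02, 10.20, 9.62 and 9.72 under PT and 9.05, 8.63, 8.06 and 8.45 in medium, a rise of 1.34 (SE 0.27, limma, adjusted p = 0.0324), while a dimmer probe of the gene gave 0.52. Of 20 cell cycle inhibitors and p53 targets, 4 rose and 1, SESN1, fell, with a median of 0.30, where 2.48% of all genes rose and 2.67% fell. Of 22 BCL2 family genes, 4 rose and 1 fell, and the antiapoptotic MCL1 rose by 0.46 (SE 0.09, limma, adjusted p = 0.0401). Of 21 genes of BMP and TGF-beta signalling, 5 rose and 1 fell, none past the adjustment, with a median of 0.32. The ligand BMP2 rose by 0.84 and the receptors TGFBR2 and BMPR2 by 0.61 and 0.54.

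**Figure D3:**
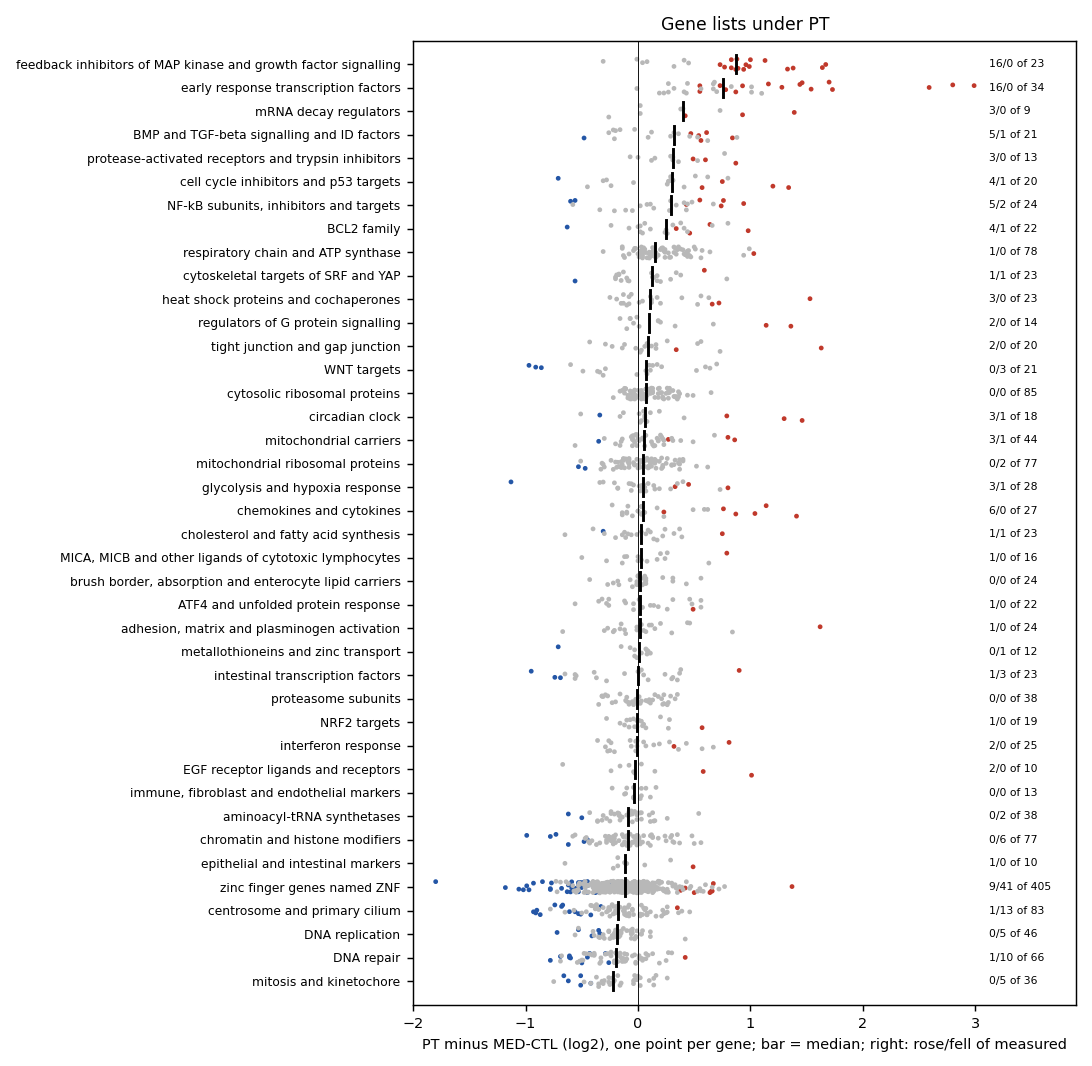
Difference between PT and MED-CTL (log2) of each measured member of 40 gene lists; red points rose, blue points fell, grey points did not pass the nominal p under 0.01, black bars are medians, and the numbers give genes risen and fallen of those measured. The lists of MAP kinase feedback inhibitors and of early response transcription factors have the medians furthest from 0, at 0.87 and 0.76, and those of mitosis and DNA repair are lowest, at -0.22 and -0.20.

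Lowered genes changed by smaller amounts, with a median difference of −0.51 on the log2 scale among the 460 called, against 0.58 among the 427 raised. TXNIP, which inhibits thioredoxin and glucose uptake, read 12.41, 12.69, 12.32 and 12.16 under PT and 13.39, 13.92, 13.51 and 13.28 in medium. It fell by 1.13 (SE 0.14, limma, adjusted p = 0.00195), and among 28 genes of glycolysis and the hypoxia response it was the 1 that fell, while 3 rose. These were PFKFB3, an activator of glycolysis (0.45, SE 0.07, limma, adjusted p = 0.00833), ANKRD37 (0.80, SE 0.22, adjusted p = 0.154) and the aldolase gene ALDOA (0.33, SE 0.10, adjusted p = 0.225). Dimmer PFKFB3 probes gave between 0.05 and 0.17. The slide block gave 6 risen and 1 fallen in this list, against 6.54% and 6.99% of all genes in that fit. Without that block, 2.48% of all genes rose and 2.67% fell. PRKCQ, a protein kinase C isoform, lay between 6.5 and 6.76 on the PT arrays and between 7.61 and 7.79 on the MED-CTL arrays, and fell by 1.03 (SE 0.11). ELAC1, a tRNA-processing enzyme, fell by 1.22 (SE 0.23), GOLPH3L, a Golgi protein, by 1.11 (SE 0.23) and IRAG2 by 1.08 (SE 0.21). With a slide block, the 12 largest falls had differences between −1.72 and −0.84, all with an adjusted p under 0.05.

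Among 21 WNT targets and components, 3 (14.3%) fell and none rose, against 2.67% and 2.48% of all genes. All 3 passed the adjustment, while the median of the list was 0.07. The slide block gave 3 risen and 5 fallen, against 6.54% and 6.99% of all genes in that fit. ASCL2, a transcription factor of intestinal stem cells, read 12.96, 12.85, 12.81 and 12.91 under PT and 14.02, 14.04, 13.59 and 13.54 in medium. The PT arrays lay close together, and ASCL2 fell by 0.91 (SE 0.12, limma, adjusted p = 0.00285), with −0.53 for a dimmer probe. AXIN2, a feedback inhibitor of the WNT pathway, read 11.75, 11.39, 11.30 and 11.46 against 12.03, 12.34, 12.61 and 12.36 and fell by 0.86 (SE 0.17), and the receptor FZD1 fell by 0.97 (SE 0.19). Dimmer probes of AXIN2 and FZD1 gave −0.26 and −0.19. The stem cell marker LGR5 (−0.36) and CCND1 (−0.01) did not pass.

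Of 23 intestinal transcription factors, 1 rose and 3 fell, with a median of 0.00, where 2.48% of all genes rose and 2.67% fell. Among those that fell were the orphan nuclear receptor NR2F2, by 0.95 (SE 0.21, limma, adjusted p = 0.0565), and the retinoid X receptor RXRB, by 0.69 (SE 0.23). PPARA, a nuclear receptor for fatty acids, rose by 0.90 (SE 0.13), with dimmer probes between 0.11 and 1.17. CDX2 (−0.65), HNF4A (−0.12) and GATA6 (0.09) did not pass. None of 24 genes of the brush border, nutrient absorption and lipid carriage passed the threshold, and their differences lay between −0.43 and 0.56. Of 20 genes of tight and gap junctions, 2 rose and none fell, with a median of 0.09, and CLDN3 rose by 0.34.

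Lists of cell division and DNA repair genes had medians slightly below 0. For comparison, 2.67% of all genes fell and 2.48% rose. Of 46 DNA replication genes 5 (10.9%) fell and none rose, with a median of −0.19. Of 36 mitosis and kinetochore genes 5 (13.9%) fell and none rose, with a median of −0.22. Of 66 DNA repair genes 10 (15.2%) fell and 1 rose, with a median of −0.20, and of 83 genes of the centrosome and primary cilium 13 (15.7%) fell and 1 rose, with a median of −0.18. The medians of these 4 lists were below 0 in each of the 4 runs, between −0.41 and −0.07, and between −0.19 and −0.16 with a slide block. Few single members passed the adjustment, namely 2, 0, 1 and 4 genes in the same order. CHAF1B, a subunit of the chromatin assembly factor, fell by 0.53 (SE 0.10) and the polymerase subunit POLD3 by 0.72 (SE 0.15). A dimmer POLD3 probe gave −0.22. BRCA1, which acts in homologous recombination, fell by 0.50 (SE 0.11), and TUBGCP3, a subunit of the gamma-tubulin complex, by 0.90 (SE 0.14). The kinases NEK3 and PKMYT1 fell by 0.87 (SE 0.15) and 0.62 (SE 0.14), the latter with an adjusted p of 0.0632.

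Many of the falls were in zinc finger genes, most of which encode DNA-binding repressors. Of 405 genes named ZNF, 41 (10.1%) fell and 9 (2.22%) rose, against 2.67% and 2.48% of all genes. The median was −0.12, and 12 of the 41 passed the adjustment. The medians by run were −0.07, −0.09, −0.21 and −0.15. ZNF619 read 7.16, 6.95, 7.03 and 6.86 under PT and 8.63, 8.88, 9.54 and 8.14 in medium, a fall of 1.80 (SE 0.25, limma, adjusted p = 0.00382). ZSCAN26 read 8.23, 7.95, 7.92 and 7.93 against 9.68, 9.80, 9.88 and 9.55 and fell by 1.72 (SE 0.10), with −1.61 for its other probe. ZNF777 fell by 1.18 (SE 0.14) and ZSCAN9 by 1.15 (SE 0.18). Zinc finger genes are related in sequence, and the specificity of their probes was not tested.

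The largest rise in the same family was that of ZNF143, an activator of snRNA and housekeeping genes. It read 11.59, 11.56, 11.64 and 11.52 under PT and 10.43, 10.00, 10.22 and 10.16 in medium, which put every PT array above every MED-CTL array by more than 1 log2 unit. The rise was 1.37 (SE 0.08, limma, adjusted p = 3.58e-06).

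Some of the lowered zinc finger genes lay next to each other on the chromosomes. After these values were seen, genes named ZNF, ZSCAN or ZKSCAN were joined into clusters wherever at most 3 other protein-coding genes lay between neighbours in RefSeq's gene order, and 19 clusters had 5 or more measured members. In a cluster on chromosome 6, 6 of 9 measured genes fell (ZSCAN16, ZSCAN9, ZKSCAN4, ZSCAN26, ZKSCAN3 and ZSCAN12), with a median of −0.85. In a cluster on chromosome 7, 6 of 8 fell (ZNF786, ZNF425, ZNF398, ZNF212, ZNF777 and ZNF746), with a median of −0.52, and in a cluster on chromosome 19, 3 of 5 fell (ZNF302, ZNF181 and ZNF30), with a median of −0.97. Together these 3 clusters held 15 of the 50 genes that fell among 425 measured. These 3 clusters were shown because their medians were the lowest of the 19, so their distance from the others follows from that choice. In the other 16 clusters 13 of 207 genes fell and 3 rose, with medians between −0.33 and 0.06. The remaining 22 lowered genes lay outside the 19 clusters. With a slide block the 3 medians were −0.78, −0.47 and −0.84. Under PT-G they were −0.70, −0.52 and −0.70, and under p31-43 −0.07, 0.01 and −0.06, each against the same MED-CTL arrays.

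**Figure D4:**
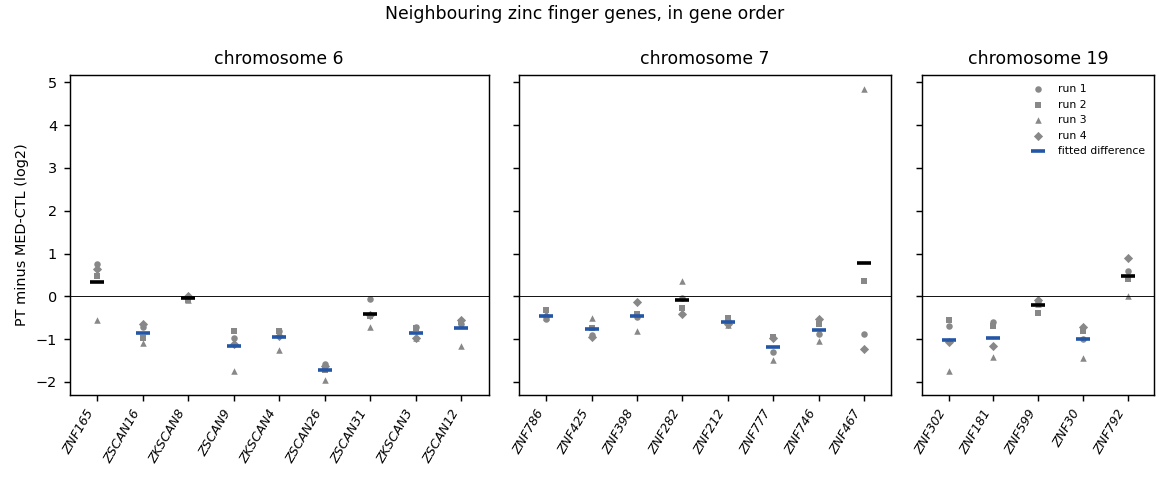
Difference between PT and MED-CTL (log2) of the measured zinc finger genes of 3 clusters, in gene order along the chromosome; grey symbols are the 4 runs and bars the fitted differences, blue where the gene fell and black where it did not pass the nominal p under 0.01. The 3 clusters were chosen for their lowest medians. In the chromosome 6 cluster 6 of 9 bars are blue, and the point near 5 is ZNF467 in run 3.

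Many functions showed few changes at this precision, where 2.48% of all genes rose and 2.67% fell. Of 85 cytosolic ribosomal protein genes and 38 proteasome genes none passed the threshold, with medians of 0.07 and −0.01. Of 78 respiratory chain genes 1, COX5A, rose, with a list median of 0.15 that reached 0.57 in run 3 and lay between −0.05 and 0.17 in the others. Of 77 mitochondrial ribosomal protein genes 2 fell, and of 44 mitochondrial carriers 3 rose and 1 fell. Of 22 genes of the unfolded protein response and 19 NRF2 targets 1 each rose, XBP1 by 0.49 and NFE2L2 by 0.57. Of 25 interferon response genes 2 rose, IFIT5 by 0.81 and IFIT2 by 0.32, while a dimmer IFIT2 probe gave −0.0. Of 16 ligands of cytotoxic lymphocytes, MICB rose by 0.79 (SE 0.21, limma, adjusted p = 0.131), and MICA was 0.63 higher without passing (SE 0.28). With a slide block MICA rose by 0.60 (SE 0.15, limma, adjusted p = 0.0358). Of 23 genes of cholesterol and fatty acid synthesis 1 rose and 1 fell, with a median of 0.03. The clock list was an exception by its share of called genes, although its median was 0.06. Of 18 clock genes 3 (16.7%) rose, namely BHLHE40, NR1D1 (1.30) and PER1 (0.79), and 1 (5.56%), CRY2, fell by 0.34.

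The remaining lists moved little, beside 2.48% of all genes that rose and 2.67% that fell. Of 77 chromatin and histone modifier genes 6 fell and none rose, with a median of −0.09, and EPC2, a subunit of a histone acetyltransferase complex, fell by 0.62 (SE 0.10). Of 38 aminoacyl-tRNA synthetases 2 fell, AARS2 by 0.50 and TARS2 by 0.62. Of 12 metallothioneins and zinc transporters SLC30A1 fell by 0.71. Of 24 genes of adhesion and matrix TNS4, a focal adhesion protein, rose by 1.62 (SE 0.35, limma, adjusted p = 0.051). Of 23 cytoskeletal targets of SRF and YAP, CCN1 rose by 0.59 and AJUBA fell by 0.56. Of the 10 epithelial markers KRT20 rose by 0.49.

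The slide block moved the counts of other lists as well, against 6.54% of all genes higher and 6.99% lower in that fit. Of the 66 DNA repair genes 25 fell and none rose, of the 83 centrosome and cilium genes 21 fell and 3 rose, of the 46 DNA replication genes 14 fell and 1 rose, and of the 36 mitosis genes 10 fell. Of the 405 genes named ZNF 75 fell and 21 rose. Of the 23 intestinal transcription factors 7 fell and 3 rose, and of the 77 chromatin genes 11 fell and 6 rose. Of the 24 genes of NF-kB 9 rose and 3 fell, of the 21 of BMP and TGF-beta signalling 9 rose and 1 fell, of the 23 heat shock genes 7 rose, of the 20 cell cycle inhibitors and p53 targets 7 rose and 2 fell, of the 25 interferon response genes 6 rose and 1 fell, and of the 9 mRNA decay regulators 6 rose.

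The values of PT were set beside those of p31-43 and PT-G for the 24 genes of largest change. These comparisons share arrays, and the genes were chosen on the PT and MED-CTL arrays, so the counts below follow in part from that choice. For the 12 largest rises, PT differed from MED-CTL by 1.53 to 2.99, PT-G by 1.37 to 2.99 and p31-43 by −0.13 to 0.30. For the 12 largest falls the differences were −1.80 to −0.97 under PT, −1.49 to −0.74 under PT-G and −0.32 to 0.14 under p31-43. In the direct test all 12 rises were higher under PT than under p31-43 at the nominal threshold and all 12 falls lower, where over all genes 1.99% were higher and 2.41% lower. Between PT-G and PT the rises differed by −0.16 to 0.32 and none passed. Of the 12 falls, ZSCAN26 was the 1 that passed the nominal threshold, 0.34 higher under PT-G than under PT (limma, adjusted p = 1), while over all genes 0.0522% were higher and 0.029% lower under PT-G. ZNF619 was 0.31 higher under PT-G (limma, adjusted p = 1).

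**Figure D5:**
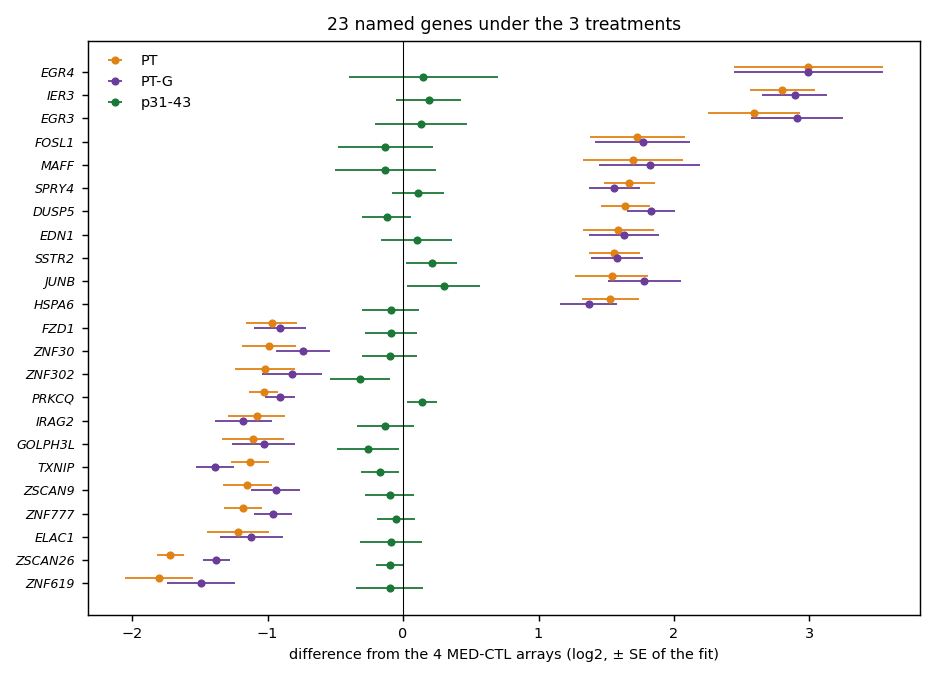
Difference from the 4 MED-CTL arrays (log2, ± SE of the fit) under PT (orange), PT-G (purple) and p31-43 (green) for 11 of the 12 largest rises and the 12 largest falls under PT. PT and PT-G points lie beside each other, and p31-43 points lie between -0.32 and 0.30. All 3 treatments share the MED-CTL arrays.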

How the data were processed

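RNA of 16 cultures was hybridised to 1-colour Agilent arrays. The authors deposited scanner intensities on a linear scale, with local background and marks for control spots, outliers and spots well above background, and a table of log2 values. For the deposited log2 table the authors took the median foreground of every spot, left the background in, and brought the arrays to a common distribution by quantile normalization. They were used here after 1639 control spots and spots marked as outliers were left out and the spots of a probe averaged. Precision is limited by the number of arrays, and probe signal over background takes the place of depth.

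Of 41000 probes, 40982 with 3 or more unmarked arrays in each group went into limma (version 3.58.1, R version 4.3.3), as a single model with a mean per condition and no covariates (12 residual and 1.9 prior degrees of freedom). P-values are moderated and 2-sided, with Benjamini-Hochberg adjustment over all probes. They measure the spread between 4 experiments with 1 cell line. Values of genes are those of their brightest probe over the 16 arrays, named through RefSeq accessions, of which 23434 of 24863 matched a current symbol. Of 336 called genes with several probes, 47 had another probe of opposite sign. A fold for a gene below background is the PT mean against, per array, the higher of its own value and the lowest signal well above background. For CXCL8 this left the MED-CTL mean at its measured 6.03. Genes named are the 12 largest rises and 12 largest falls with an adjusted p under 0.05, no overlap between PT and MED-CTL and a probe well above background on all arrays of the higher group, the 4 members with the smallest p of each of 40 lists, and others chosen after their values were seen, apart from some that are not reported here. The lists and named genes were chosen with earlier results of these data known. Slide, run and replicate number were tried as blocks, besides other background corrections, scalings, filters, array weights (statmod 1.5.0) and leaving out each array. On simulated data with 200 changed of 40705 probes, the model recovered 120, 183 and 198 of them at a nominal p under 0.01 for log2 changes of 0.5, 1 and 2.

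Probe positions are not given, since the sources used here name no genome build for the probes. Promoter coordinates and the order of genes along chromosomes are those of RefSeq (GRCh38.p14).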

Additional observations from a re-analysis of the deposited data

Results flagged for a closer look

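In 334 groups of 4 arrays (167 named genes, PT and MED-CTL), 12 had an array whose gap to the nearest of the others passed Dixon's limit for 4 values, where chance gives about 1 in 20. For PT arrays these were EDN1 in replicate 3 (log2 13.77), ZSCAN26 in replicate 1 (8.23), RGS10 in replicate 4 (13.92), PRSS22 in replicate 1 (13.85), MAP3K8 in replicate 1 (10.12), VWF in replicate 1 (6.82), RPL9 in replicate 3 (16.9) and SLC25A28 in replicate 3 (12.55). For MED-CTL arrays they were NFE2L2 in replicate 4 (13.43), NECTIN3 in replicate 1 (12.14), HLA-C in replicate 4 (15.53) and MRPL35 in replicate 4 (12.77). The PT arrays of EDN1, PRSS22 and MAP3K8 stayed above all MED-CTL arrays, and those of ZSCAN26 below them. For EDN1 and ZSCAN26 the rule of choice required this.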

How the results depend on the processing

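The counts of called genes depended on how the spread was estimated. At a nominal p under 0.01 the counts higher and lower (427 and 460) became 843 and 1044 with a replicate block, 1054 and 1219 with a run block, 1126 and 1205 with a slide block, 652 and 734 with array weights, and median scaling left 271 lower. After adjustment the 112 higher and 108 lower genes became 491 and 545 with the replicate block, 729 and 804 with the run block, 789 and 799 with the slide block, 317 and 320 with array weights, 7 and 2 in a fit of PT and MED-CTL alone, 63 and 37 with an intensity trend, 49 and 32 with the processed signal scaled to its 75th percentile, and 71 and 29 with median scaling, and a filter on dim probes left 69 lower. All 112 and 108 genes were among those called with each of the 3 blocks. Leaving out 1 array gave 314 to 426 and 337 to 665 genes at the nominal threshold, and 59 to 108 and 37 to 142 after adjustment, the lowest without MED-CTL replicate 2. Without any 1 of PT replicates 1 to 4, 61 to 69 higher and 41 to 58 lower genes passed the adjustment, and 58 and 67 lower genes without MED-CTL replicates 1 and 3. Median scaling moved the median of all genes to −0.08. Among the genes of largest change and the 4 members named by each list, no alternative reversed a gene that passed the nominal threshold in either fit. Changes of sign in genes that passed in neither fit were not counted. Deviations of PT and MED-CTL arrays of the same replicate number correlated by 0.034, 0.313, −0.00256 and 0.412 across probes, and those of the same run by 0.376, 0.621, −0.00256 and 0.412. In runs 1, 2 and 4 the MED-CTL array that correlated best with the PT array was that of the same run. In run 3 it was that of run 4. With 1 pair below 0.1 in the runs and 2 in the numbers, neither was taken to pair the arrays. The p-values of the main fit therefore leave out any pairing by run. The causes of these differences were not tested. The early response and feedback medians stayed between 0.63 and 0.94 and between 0.79 and 0.96.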

Other observations

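Genes outside the lists that changed were looked at after their values were seen. GDF15, a stress-induced cytokine of the TGF-beta family, rose by 1.17 (SE 0.19, limma, adjusted p = 0.0115), and the potassium channel gene KCNK6 rose by 1.06 (SE 0.09, adjusted p = 7.7e-05). G0S2, an inhibitor of lipolysis, fell by 0.90 (SE 0.16). The Hedgehog receptor component SMO fell by 0.42 (SE 0.08) and the serotonin transporter SLC6A4 by 0.78 (SE 0.17). CYP1A1 and CYP1B1, the classical target genes of the aryl hydrocarbon receptor, fell by 1.02 (SE 0.28) and 1.21 (SE 0.30) without passing the adjustment (0.139 and 0.10), whereas TIPARP, another target, rose by 0.59 (SE 0.11, adjusted p = 0.0258). The neurotrophin BDNF and the transcription factor SNAI1 rose by 1.27 and 1.31, with adjusted p of 0.0596 and 0.208.

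The difference furthest from 0 belonged to PRDM10-DT, at −5.50 (SE 1.30, adjusted p = 0.101). On the MED-CTL arrays its probe read 14.43, 14.73 and 8.34, and on the PT arrays 7.32, 7.08 and 6.62, with the spot of 1 more array in each group marked as an outlier, and its other probe gave 0.23.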
